A study of Mus musculus with 74 samples.

Results

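Desert hedgehog (Dhh) and the genes that receive, transmit and answer hedgehog signals were followed in fetal mouse gonads while the testis pathway begins. They were picked out by their gene symbols: Dhh, Smo, Ptch1, Gli1, Gli2, Gli3, Hhip and Gas1. Of these 8 genes, 7 had a probe on the array, or 7 of the 16593 genes in the normalized table. They gave 9 of its 25697 probes, since Smo had 3 probes and the others 1 each. Gli2 had no probe, so no expression value is given for it. The question was whether the response genes change with the ligand before E12.0.

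The study profiled 74 pairs of gonads, each on 1 array, from wild-type XX and XY embryos of 129S1/SvImJ (129S1) and C57BL/6J (B6) mice. Several samples shared each Illumina BeadChip, and the paper states that they were assigned to chips in a balanced way. The fit used here held no term for the chip. Embryos were staged by tail somites from E11.0 to E12.0 in steps of 4.8 h (E11.2, E11.4 and E11.6, then E11.8, lie between), and the mesonephroi had been dissected away. The 24 groups of strain, karyotype and stage held 3 arrays each, except for 5 in 129S1 XY at E11.0, 4 in B6 XY at E11.2 and 2 in 129S1 XY at E12.0. Neither strain carried a transgene or a treatment. All values are normalized log2 signals of whole gonads. In such samples, fewer cells of a type and less RNA per cell cannot be told apart.

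In mammals, hedgehog ligands are secreted proteins that bind the receptor Ptch1 on a neighbouring cell. Binding relieves the block that Ptch1 holds on Smo, and Smo then turns the Gli transcription factors into activators. Ptch1, Gli1 and Hhip are themselves switched on by the pathway, so their transcripts serve as its readout in many tissues. In the fetal testis, Dhh comes from Sertoli cells and the signal is received by interstitial cells, where it supports the differentiation of fetal Leydig cells.

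The sequences just upstream of the ligand gene and of its receptor gene are shown because Dhh was the member that moved and Ptch1 is the classical readout of the pathway. Each is the 250 bases before the start of the RefSeq gene on GRCm38.p6, written 5′ to 3′ on the strand of the gene, that is, the minus strand at chr15:98898541-98898790 for Dhh and the minus strand at chr13:63565736-63565985 for Ptch1.
Dhh: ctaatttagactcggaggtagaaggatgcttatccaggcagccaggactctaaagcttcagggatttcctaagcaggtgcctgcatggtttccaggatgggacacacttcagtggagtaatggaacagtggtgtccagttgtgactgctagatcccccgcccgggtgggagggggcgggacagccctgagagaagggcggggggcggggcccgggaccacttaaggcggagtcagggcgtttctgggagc
Ptch1: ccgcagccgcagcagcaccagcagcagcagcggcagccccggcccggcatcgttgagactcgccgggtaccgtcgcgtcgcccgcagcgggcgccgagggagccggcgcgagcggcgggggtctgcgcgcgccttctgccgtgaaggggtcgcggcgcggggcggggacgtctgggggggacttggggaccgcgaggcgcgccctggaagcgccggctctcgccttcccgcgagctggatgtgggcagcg
No letters are in capitals because none of 4 motifs searched on both strands occurred in them: the Gli motif GACCACCCA, the Sox motif AACAAT, the Nr5a1 motif AAGGTCA and the Gata motif AGATAA. Windows were found for 7 members, Gli2 among them, while Gli1 had no entry in the table, and 0 of the 7 held any of the 4 motifs. Among 32851 windows of the same length, 0.225% held the Gli motif, 9.42% the Sox motif, 4.08% the Nr5a1 motif and 9.99% the Gata motif. These letters were searched in a short window, and nothing follows from their absence about the factors.

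The array has a floor below which a transcript does not register. It was read from probes for Y-linked genes in the 36 XX arrays, where the transcript cannot exist. In these arrays, 6 such probes of 5 genes lay between 6.83 and 7.43, while the probe for a sixth gene, Uty, reached 8.09 and was kept apart. All 3 Smo probes lay above 7.43 in 74 of 74 arrays. Dhh passed 8.09 in 15 arrays, all of them XY, and passed 7.43 in 13 of 36 XX arrays. Ptch1 passed 7.43 in 24 of 74 arrays and 8.09 in 0. Hhip passed 7.43 in 5 arrays, Gli3 in 4, and Gli1 and Gas1 in 0. For a probe at this floor, a difference in signal may understate the difference in transcript, and a small rise may go unseen.

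As to the arrays themselves, Eif2s3y and Kdm5d separated the sexes as labelled, with no overlap between XX and XY. Replicates were individual embryos, so the spread between arrays includes the spread between embryos. A B6 XX array at E11.2 stood apart for several members, with Ptch1 at 8.03, Dhh at 7.79 and Hhip at 7.56, the highest XX value of each gene. It belongs to none of the groups compared from E11.6 onward, but its deviation enters the estimate of the spread that all groups share. Results for which this mattered are given with and without it.

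Dhh, the ligand, became strongly XY-enriched within a few hours. In 129S1 XY gonads its signal was 7.31 ± 0.15 (SD, n = 5) at E11.0, 7.30 ± 0.13 (n = 3) at E11.2 and 7.64 ± 0.35 (n = 3) at E11.4. It was 9.75 ± 0.38 (n = 3) at E11.6, 11.02 ± 0.47 (n = 3) at E11.8 and 11.79 ± 0.04 (n = 2) at E12.0. In B6 XY gonads the same stages gave 7.41 ± 0.07 (n = 3), 7.40 ± 0.14 (n = 4), 7.53 ± 0.25 (n = 3), 7.96 ± 0.53 (n = 3), 10.02 ± 0.30 (n = 3) and 10.65 ± 0.84 (n = 3). XX gonads of both strains stayed between 7.11 and 7.79 in all 36 arrays, at or just above the floor.

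The rise was sharp enough to be read from single arrays. The 3 arrays of 129S1 XY at E11.4 read 7.30, 7.62 and 7.996, and those at E11.6 read 10.01, 9.92 and 9.32. The 3 arrays of B6 XY at E11.6 read 7.78, 7.54 and 8.55, and those at E11.8 read 10.02, 9.73 and 10.32. At the following stages the 129S1 XY arrays read 10.69, 10.82 and 11.56, then 11.76 and 11.82, and the B6 XY arrays at E12.0 read 9.68, 11.14 and 11.15. Each strain jumped between a pair of neighbouring stages with no overlap between them, and B6 did so a stage later. At E11.6, E11.8 and E12.0 no XY array of either strain overlapped the XX arrays of its stage, a property held by 0.514%, 2.28% and 2.82% of all probes.

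**Figure D1:**
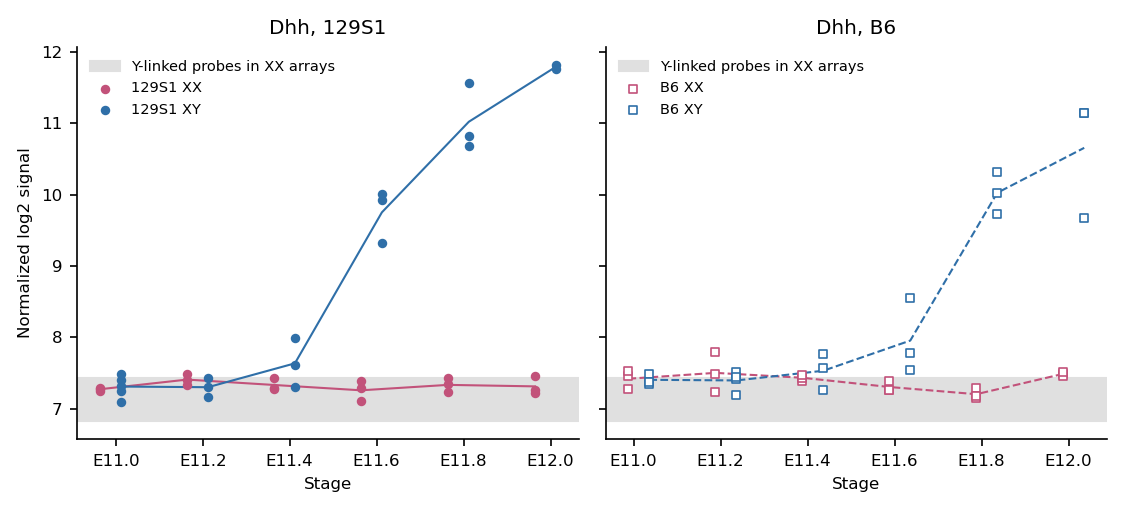
Normalized log2 signal of the Dhh probe (y axis) by stage (x axis) in 129S1 (left, filled circles) and B6 (right, open squares), 1 point per array, with lines through the group means of XX (red) and XY (blue), solid in 129S1 and dashed in B6. The grey band is the range of 6 Y-linked probes in XX arrays, 6.83 to 7.43; XY arrays stand far above it from E11.6 in 129S1 (9.32 to 10.01) and from E11.8 in B6 (9.73 to 10.32).

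Averaged over the strains, Dhh was not called by sex at E11.0, E11.2 or E11.4, where XY minus XX was 0.01, -0.11 and 0.20 on the log2 scale (limma, adjusted p = 0.947 at E11.4, with a 95% interval of -0.11 to 0.51). The difference was 1.57 ± 0.15 (SE) at E11.6, 3.25 ± 0.15 at E11.8 and 3.82 ± 0.16 at E12.0, with adjusted p = 6.9e-11, 3.7e-24 and 3.6e-26 over all 25697 probes. At E12.0 this is a signal 14.1-fold higher in XY, with a 95% interval of 11.3 to 17.7. XX gonads lay near the floor, so the fold in signal may understate the fold in transcript. Dhh was the 1 member called at E11.6, when 0.732% of all probes were called. An exact two-sided permutation of sex within each strain gave p = 0.005 at each of the last 3 stages, the smallest value the design allows, or 0.0338 after adjustment over 27 such tests.

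By adjusted p, Dhh was first called by sex at E11.6 in 129S1 and at E11.8 in B6, and the sex effect at E11.6 was larger in 129S1. In 129S1, XY minus XX was 2.49 ± 0.22 at E11.6, 3.68 ± 0.22 at E11.8 and 4.47 ± 0.24 at E12.0, and all passed where 0.767%, 1.93% and 2.91% of all probes were called. In B6 the values were 0.65 ± 0.22, 2.82 ± 0.22 and 3.16 ± 0.22. The first of these did not pass (adjusted p = 0.823, unadjusted p = 0.0041), where 0.0895% of all probes were called, and the others did, against 1.62% and 1.99%. Leaving out 1 array at a time moved the B6 value at E11.6 between 0.35 and 0.86 and gave no call. All 3 B6 XY arrays of that stage, at 7.54 to 8.55, still lay above the XX arrays, at 7.26 to 7.39. By an unadjusted p with the minimum fold of the study's methods, the onset was E11.6 in both strains. The difference between the strains' sex effects was 1.84 ± 0.31 at E11.6 (adjusted p = 0.0041), in a comparison that called only 0.0156% of all probes. It was 0.86 ± 0.31 at E11.8 (adjusted p = 0.947) and 1.31 ± 0.32 at E12.0 (adjusted p = 0.0762), neither of which passed, with 0.0195% and 0.167% of all probes called. The E12.0 value rested on single B6 XY arrays: it was 0.82 (adjusted p = 0.663) without the one that read 9.68, and it was called without the one that read 11.14 (1.55, adjusted p = 0.0229) or 11.15 (1.56, adjusted p = 0.0174). It was also called over the brighter 50% of probes (adjusted p = 0.0391). The E11.6 interaction did not pass when only the E11.6 arrays were fitted (adjusted p = 0.444), with the same estimate.

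Within XY gonads alone, 129S1 exceeded B6 by 1.79 ± 0.22 at E11.6, 1.00 ± 0.22 at E11.8 and 1.13 ± 0.24 at E12.0 (adjusted p = 2.0e-08, 0.0025 and 0.0018). Of all probes, 2.61%, 1.96% and 2.35% were called in these comparisons. The last value rested on 1 low B6 array, which read 9.68 beside 11.14 and 11.15, and without it the strain difference was 0.65 (adjusted p = 0.139). The E11.8 value fell to 0.73 (adjusted p = 0.144) without the highest 129S1 array, which read 11.56. It also lost its call without the lowest B6 array of that stage (0.85, adjusted p = 0.0609). In XX gonads at E12.0 the strain difference was -0.18 (95% interval -0.61 to 0.26) and did not pass.

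B6 was also set against 129S1 a stage earlier, a comparison chosen after the values were seen. Dhh in 129S1 at E11.6 minus B6 at E11.8 was -0.27 (95% interval -0.71 to 0.16), and 129S1 at E11.8 minus B6 at E12.0 was 0.37 (-0.07 to 0.80). Neither passed (adjusted p = 0.805 and 0.809), although 2.07% and 1.63% of all probes did. Without the B6 E12.0 array that read 9.68, the second value was -0.12.

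Step by step, the largest gain lay between E11.4 and E11.6 in 129S1, at 2.11 ± 0.22 (adjusted p = 3.7e-09, 0.323% of all probes called). In B6 it lay between E11.6 and E11.8, at 2.07 ± 0.22 (adjusted p = 7.8e-09, 0.261% of all probes called). The next step in 129S1, from E11.6 to E11.8, added 1.27 ± 0.22 (adjusted p = 0.0017, or 0.165 without the array that read 11.56), in a step that called 0.0895% of all probes. The final step to E12.0 added 0.77 ± 0.24 in 129S1 and 0.63 ± 0.22 in B6, and neither passed (adjusted p = 0.56 and 1). Over the whole day Dhh rose by 4.48 ± 0.22 in 129S1 XY and by 3.25 ± 0.22 in B6 XY (adjusted p = 1.3e-22 and 4.3e-17), where 5.27% and 2.53% of all probes were called. In XX gonads the change was 0.05 ± 0.15 (adjusted p = 0.928), where 5.15% were called.

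Genes of pre-Sertoli cells, the XY supporting cells that express Dhh, were called by sex at some of the same stages. Their list was chosen with earlier results of these data known. It holds genes that the study reports as enriched in XY gonads, such as Sox9 and Amh. The counts below therefore describe these genes and are no independent evidence. Of 12 measured pre-Sertoli genes, 3 were higher in XY at E11.4, when Dhh was not called, against 0.0506% of all probes. At E11.6 9 were higher, against 0.732%, and at E12.0 10 were higher, against 4.88%, with a median difference of 2.27. Sox9, the transcription factor that directs Sertoli cell fate, stood at 2.15 and Amh, the hormone that removes the Müllerian ducts, at 2.38. Their mean level was 9.27 to 9.89 in XY and 7.60 to 7.76 in XX arrays at E12.0. In B6 XY at E11.6 the array with Dhh at 8.55 had a pre-Sertoli mean of 8.73, against 8.40 and 8.42 in the others. In B6 XY at E12.0 the array with Dhh at 9.68 had 9.27, against 9.64 and 9.87. Their part in the timing of Dhh was not tested. The genes whose 24 group means were most like those of Dhh, as a description over arrays shared between genes, were Tesc (Pearson's r = 0.991), Gdnf (0.987), Diras2 (0.985) and Trim47 (0.982). Tesc is also on the pre-Sertoli list.

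Ptch1, the receptor and a target of its own pathway, stayed near the floor. In 129S1 XY its arrays read 7.39, 7.18, 7.32, 7.40 and 7.29 at E11.0, and 7.66 and 7.61 at E12.0. In B6 XY they read 7.42, 7.37 and 7.45 at E11.0, and 7.46, 7.51 and 7.59 at E12.0. The E12.0 arrays were the highest of their strain's XY arrays in 129S1, while in B6 they overlapped earlier stages.

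The sex difference of Ptch1 was -0.12 ± 0.07 at E11.6 and -0.01 ± 0.07 at E11.8, the stages at which Dhh was already raised. At E11.8 the 95% interval reached from -0.15 to 0.13. At that stage 1 of 3 XY arrays in each strain passed 7.43, so the interval bounds the difference in signal and not in transcript. At E12.0 XY minus XX was 0.17 ± 0.07, with an interval of 0.02 to 0.31 that lies above 0 before adjustment and does not pass after it (adjusted p = 0.284, or 0.112 with the B6 XX array that stood apart left out of the fit). The exact permutation test gave p = 0.015, or 0.0675 adjusted over the 27 tests. The difference was 0.20 ± 0.11 in 129S1 and 0.13 ± 0.10 in B6. In 129S1 the XY arrays, at 7.61 to 7.66, lay above the XX arrays, at 7.32 to 7.51. Of all probes, 22.9% did not overlap between the sexes in 129S1 at this stage. In B6 the sexes overlapped for Ptch1. Over both strains XY arrays spanned 7.46 to 7.66 and XX arrays 7.27 to 7.51.

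Over the day, Ptch1 changed by 0.21 ± 0.07 in XY gonads (adjusted p = 0.0556) and by 0.03 ± 0.07 in XX gonads (adjusted p = 0.925). The XY value lies just short of the threshold in a comparison that called 7.54% of all probes. It passed when the B6 XX array that stood apart, with Ptch1 at 8.03, was left out of the fit (adjusted p = 0.01, with the same estimate), a setting chosen after the values were seen. It also passed when p-values were adjusted over the brighter 50% of probes alone (adjusted p = 0.0412), of which 17.1% were called. The same held when only the E11.0 and E12.0 arrays were fitted (0.0183). In 129S1 XY alone the change was 0.31 ± 0.10 (adjusted p = 0.0536, or 0.0089 without the array that stood apart) and in B6 XY 0.11 ± 0.10 (adjusted p = 0.849). The difference between the changes of XY and XX was 0.18 ± 0.10 (adjusted p = 0.606), where 2.49% of all probes were called. The genes whose 24 group means were most like those of Ptch1 were Tcof1 (Pearson's r = 0.849), Mars1 (0.814), Lsm2 (0.802) and H2ac10 (0.786).

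Hhip, which encodes a decoy that binds hedgehog ligands at the membrane and is another pathway target, rose slightly over the day in 129S1 XY gonads. In 129S1 XY the arrays read 7.25, 7.29 and 7.41 at E11.8 and 7.49 and 7.63 at E12.0, the 2 highest Hhip values in XY gonads. In B6 XY they read 7.25, 7.37 and 7.33 at E11.8 and 7.08, 7.08 and 7.29 at E12.0. The rise in 129S1 XY from E11.0 to E12.0 was 0.32 ± 0.09 (adjusted p = 0.0211), where 5.27% of all probes were called. The corresponding B6 value was -0.11 ± 0.09 (adjusted p = 0.821). The 129S1 rise did not pass without either E12.0 array (adjusted p = 0.0689 and 0.284) or without 1 of the E11.0 arrays (0.0546).

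At E12.0, Hhip in XY gonads was 0.41 higher in 129S1 than in B6 (adjusted p = 0.0085), where 2.35% of all probes were called. This did not pass when the E12.0 arrays were fitted alone (adjusted p = 0.164). It also did not pass without 1 of 3 arrays, the 129S1 array that read 7.63 (0.34, adjusted p = 0.162) or either B6 array that read 7.08 (0.38 each, adjusted p = 0.0619 and 0.0625). The sex difference at E12.0 was 0.27 ± 0.10 in 129S1 and -0.15 ± 0.09 in B6, and the difference between them was 0.42 ± 0.13 (adjusted p = 0.493). Averaged over the strains it was 0.06 ± 0.07.

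At E11.8 all 6 XY arrays, at 7.250 to 7.405, lay above all 6 XX arrays, at 6.999 to 7.249, as in 1.41% of all probes. The margin was small, and the difference of 0.14 ± 0.06 did not pass in the fit across all probes (adjusted p = 0.263). The exact permutation p was 0.005, the smallest value the design allows. It restates the lack of overlap and is no separate evidence. Adjusted over the 27 tests it was 0.0338, a value that depends on the Dhh tests at the same p in that family. All of these array values lie inside the range of the Y-linked probes in XX arrays. The genes whose 24 group means were most like those of Hhip were Cplx2 (Pearson's r = 0.743), Zfp710 (0.742), Stard8 (0.728) and Ipmk (0.723).

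**Figure D2:**
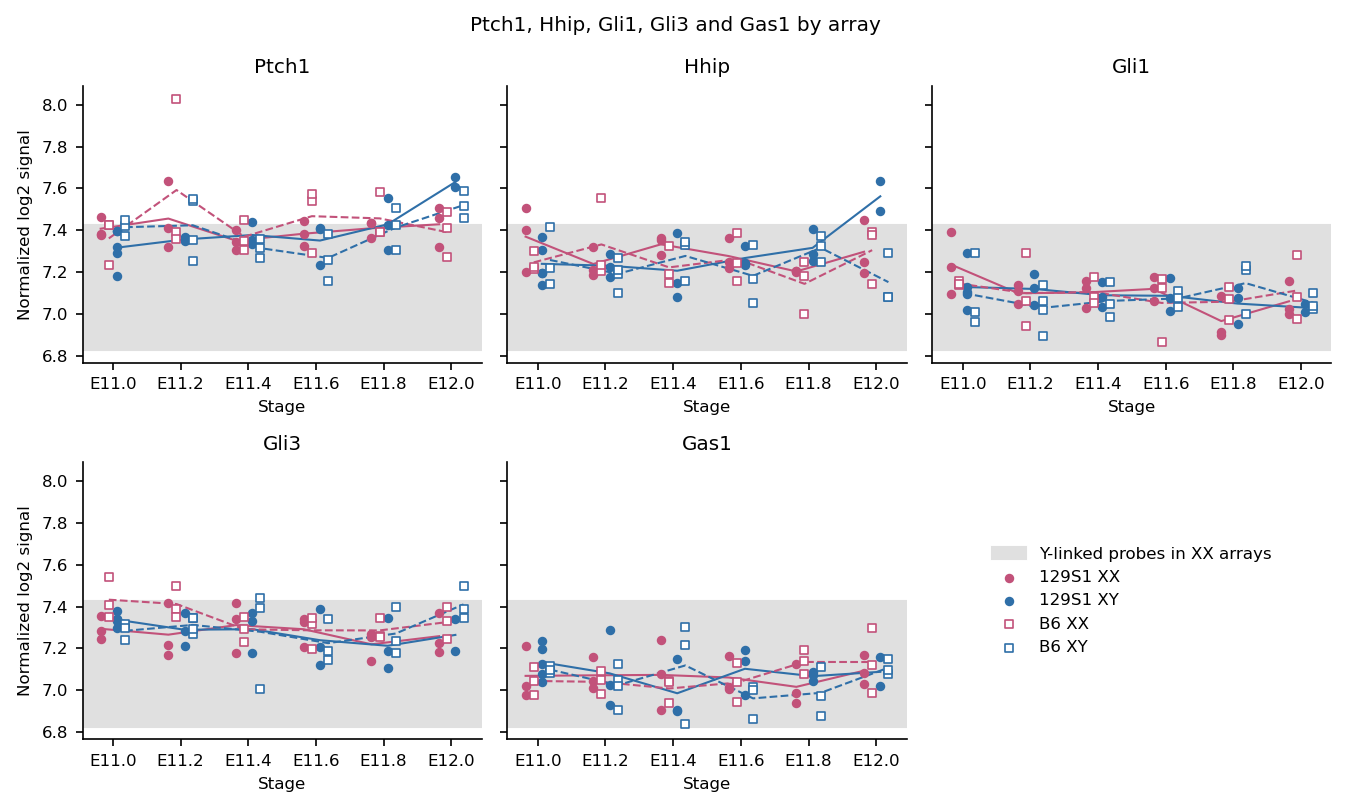
Normalized log2 signal (y axis) by stage (x axis) of the Ptch1, Hhip, Gli1, Gli3 and Gas1 probes, 1 point per array, with lines through the group means (red XX, blue XY; filled circles and solid lines 129S1, open squares and dashed lines B6). The grey band is the range of 6 Y-linked probes in XX arrays, 6.83 to 7.43; Ptch1 lies above it in 24 of 74 arrays, Hhip in 5 and Gli3 in 4, and the Ptch1 XY arrays at E12.0 span 7.46 to 7.66.

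Gli1, the transcription factor whose gene is the most direct readout of the pathway, gave no signal above the floor at any stage. Its XY arrays spanned 7.01 to 7.17 at E11.6, 6.95 to 7.23 at E11.8 and 7.01 to 7.10 at E12.0. The XX arrays spanned 6.86 to 7.17, 6.90 to 7.13 and 6.98 to 7.28, so the sexes overlapped throughout. XY minus XX was -0.04 ± 0.06 at E12.0 (95% interval -0.17 to 0.08, adjusted p = 0.888). The change over the day in XY gonads was -0.07 ± 0.06. Since all 74 arrays lay in the floor, these intervals bound the change in signal and not the change in transcript. The genes with the most similar group means were Trim46 (Pearson's r = 0.726), Ubtd1 (0.697), Bcl11a (0.684) and Hdc (0.677).

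Gli3, the main repressor of the family, and Gas1, a co-receptor that helps cells bind the ligand, passed no test either. At E12.0 XY minus XX was 0.05 ± 0.06 for Gli3 and -0.02 ± 0.07 for Gas1 (adjusted p = 0.875 and 0.974). Across the 24 groups the means spanned 7.21 to 7.43 for Gli3 and 6.96 to 7.14 for Gas1. The arrays of both sexes overlapped at E12.0, at 7.19 to 7.5 in XY and 7.18 to 7.40 in XX for Gli3, and at 7.02 to 7.16 and 6.99 to 7.30 for Gas1.

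Smo, the transducer, was measured by 3 probes, all above 7.43 in every array. The first probe passed 8.09, the level that Uty reached, in 73 of 74 arrays, and the array that did not was B6 XY at E12.0. This first probe was lower in XY gonads at E12.0 by 0.36 ± 0.08 (adjusted p = 0.0017), where 4.88% of all probes were called. The XY arrays read 8.18 and 8.23 in 129S1 and 8.35, 8.22 and 8.09 in B6. The XX arrays read 8.56, 8.58 and 8.30 in 129S1 and 8.78, 8.53 and 8.68 in B6. Within each strain the sexes did not overlap, as in 22.9% of all probes in 129S1 and 12.9% in B6, whereas over both strains they did. In B6 the difference was -0.43 at E11.8 and -0.44 at E12.0. Both passed (adjusted p = 0.0145 and 0.0108), where 1.62% and 1.99% of all probes were called. In 129S1 it was -0.02 and -0.28 (adjusted p = 0.996 and 0.348). A difference between the strains was not shown: F tests of the full factorial called this probe neither for sex by strain (adjusted p = 0.999) nor for sex by strain by stage.

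The other Smo probes did not pass. At E12.0 the second gave -0.22 ± 0.13 (adjusted p = 0.52) and the third -0.09 ± 0.09 (adjusted p = 0.808). At E11.8 the 3 probes gave -0.23 ± 0.08, -0.20 ± 0.12 and -0.23 ± 0.08, all of the same sign and none called (adjusted p = 0.0821, 0.483 and 0.139). Over the day the first probe fell by 0.26 ± 0.08 in XY gonads (adjusted p = 0.0177, with 4 of 13 arrays each ending the call when left out), and the others changed by -0.19 ± 0.12 and -0.17 ± 0.09. The B6 values at E11.8 and E12.0 also lost their call when 1 array was left out, with adjusted p of up to 0.148 and 0.149.

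**Figure D3:**
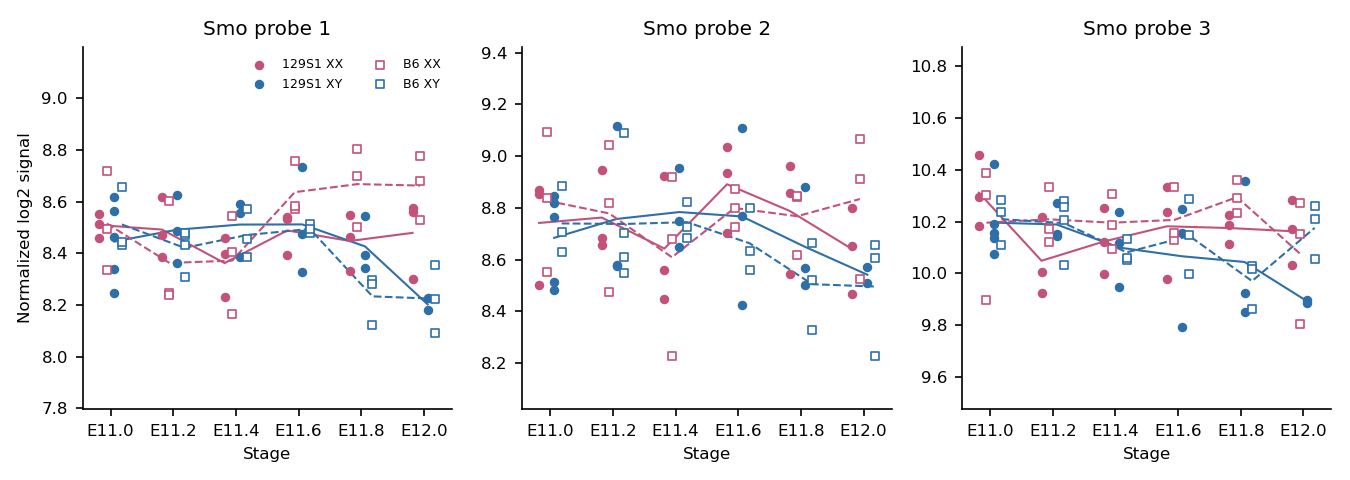
Normalized log2 signal (y axis, each panel with its own range of equal span) by stage (x axis) of the 3 Smo probes, 1 point per array, with lines through the group means (red XX, blue XY; filled circles and solid lines 129S1, open squares and dashed lines B6). At E12.0 the XY arrays of probe 1 sit at 8.09 to 8.35, below the XX arrays of their strain.

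Side by side, the sex differences in signal of the ligand and of its readout were far apart in size. Ptch1, Gli1 and Hhip passed 7.43 in only 24, 0 and 5 of 74 arrays. Their differences in signal may therefore understate those in transcript. At E11.8 the sex difference was 3.25 for Dhh, -0.01 for Ptch1, 0.09 for Gli1 and 0.14 for Hhip. At E12.0 it was 3.82 for Dhh, 0.17 for Ptch1, -0.04 for Gli1 and 0.06 for Hhip. In the same comparison 1 of 9 probes was called at E11.8, the Dhh probe, with 3.85% of all probes called. At E12.0 the calls were the Dhh probe and the first Smo probe, with 4.88% of all probes called. At E11.0, E11.2 and E11.4 none of the 9 was called, with 0.0311%, 0.0272% and 0.0506% of all probes called. Across the 12 XY group means, Dhh correlated with Ptch1 at r = 0.72, with Hhip at 0.60 and with each Smo probe at -0.73. For Gli1, Gli3 and Gas1 the values were -0.33, -0.12 and 0.08. These means share arrays and stages and are given as a description. Across the 12 XX group means, where Dhh hardly varied, the values for Ptch1 and Hhip were 0.20 and 0.25. Those for Gli1, Gli3 and Gas1 were 0.07, 0.53 and -0.22, and the Smo probes gave -0.31, -0.02 and -0.53.

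**Figure D4:**
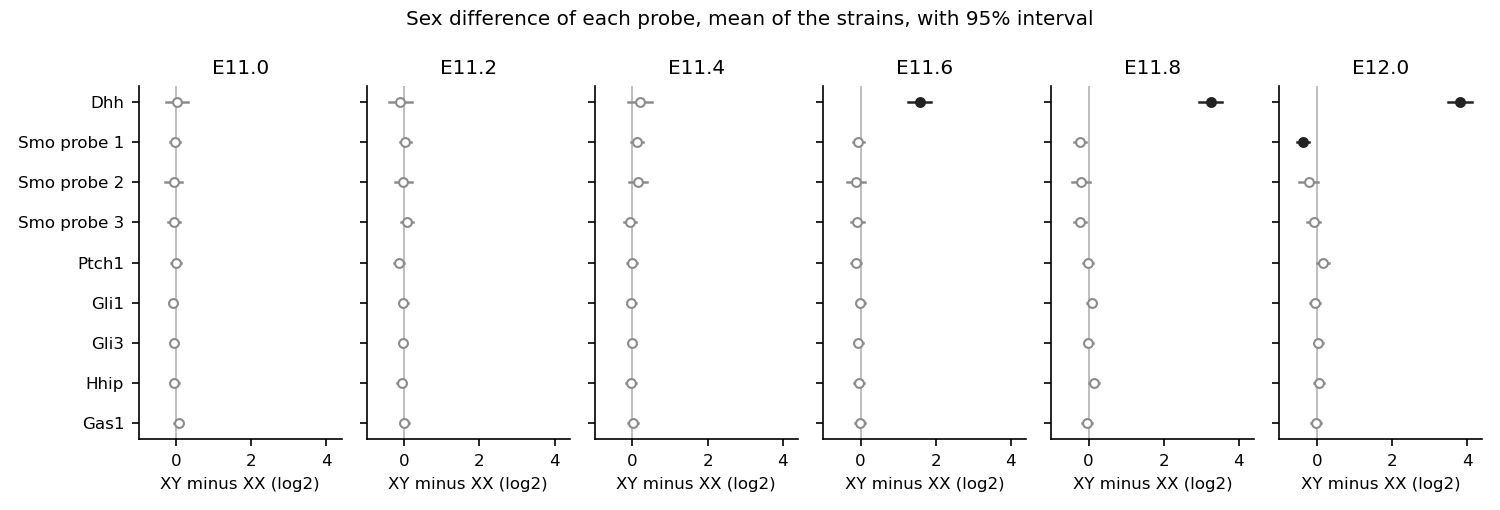
XY minus XX in log2 units (x axis), averaged over 129S1 and B6, for each of the 9 probes (rows) at 6 stages (panels). Points are limma estimates, bars 95% intervals, and filled points have adjusted p under 0.05; Dhh moves from 1.57 at E11.6 to 3.82 at E12.0 while the other probes stay within 0.36 of 0.

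In the full factorial, Dhh was called for the main effects of sex, strain and stage (adjusted p = 1.3e-26, 0.00039 and 5.0e-24), where 4.89%, 15.4% and 10.5% of all probes were called. It was also called for sex by strain (adjusted p = 0.0014), sex by stage (adjusted p = 3.0e-24) and strain by stage (0.0284). For sex by strain by stage Dhh was not called (adjusted p = 0.255). The first Smo probe was called for sex by stage (0.0256). The other 7 probes were called for none of the 7 terms. Of all probes, 0.117% were called for sex by strain, 2.68% for sex by stage, 0.109% for strain by stage and 0.0272% for the term of all 3 factors.

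The wider pathway was read from lists of known genes. Here and for the cell type lists, a gene counted as called if any of its probes was. A gene with several probes thus had more chances of a call than the single probes behind each share of all probes. Of 8 measured genes for the other ligands and for ligand release, 1 was lower in XY at E12.0, where 4.88% of all probes were called. This was Scube3 (-0.33, adjusted p = 0.0045), a secreted protein related to one that helps to release the ligand. Over the day in XY gonads 1 rose and 1 fell, where 7.54% of all probes were called. Scube2, which itself helps to release hedgehog ligands from cells, rose by 0.28 (adjusted p = 0.0078), and Scube3 changed by -0.25 (adjusted p = 0.0456). In 8 of 13 runs that each left out 1 array, only 1 of the 8 genes was called over the day, in place of 2. The sex difference of Scube2 was 0.25 at E11.8 (adjusted p = 0.0373) and 0.24 at E12.0 (adjusted p = 0.0559). The other ligands, Shh and Ihh, had differences of 0.14 and 0.10 at E12.0 and were not called. The median of this list was 0.08, with each gene read from its probe of smallest p. It is therefore not like for like with the median of 0.00 over all probes.

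Among 6 measured receptor and co-receptor genes, 1 was lower in XY at E12.0, Evc2 (-0.35, adjusted p = 0.0301), a ciliary partner of Smo, where 4.88% of all probes were called. In 6 of 11 runs that each left out 1 array, no gene of this list was called at E12.0. Gpc3, a cell-surface proteoglycan that restrains hedgehog signals, fell over the day in both sexes, by 0.52 in XY and by 0.69 in XX. Among 15 measured genes of signal transduction, 1 was lower in XY at E12.0, Btrc (-0.37, adjusted p = 0.0064), part of the ligase that processes Gli proteins, against the same 4.88%, and none was without the 129S1 XY array whose Dhh read 11.76. Over the day in XY gonads 4 fell, where 7.54% of all probes were called: Btrc by 0.49, the kinase gene Stk36 by 0.44, Spop by 0.37 and Prkaca, a catalytic subunit of protein kinase A, by 0.36. Sufu, which holds Gli proteins inactive, changed by -0.04 and was not called. In XX gonads 1 gene of this list fell over the day, where 5.15% of all probes were called. The median change of the list was alike in the sexes, at -0.084 in XY and -0.077 in XX.

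Of 24 measured genes known as hedgehog targets in other tissues, 2 were higher and 0 lower in XY at E12.0, where 4.88% of all probes were called. Leaving out 1 array at a time, the list had 1 to 4 calls. The 2 genes were Hsd11b2, which encodes an enzyme that inactivates glucocorticoids (1.64 ± 0.16, adjusted p = 9.5e-12), and Ccnd1, the cell-cycle gene cyclin D1 (0.58 ± 0.15, adjusted p = 0.0085). At E11.8 3 were higher, Hsd11b2 (1.17), Ccnd1 (0.71) and Ccnd2 (0.43), and 1 was lower, Igfbp6 (-0.35), where 3.85% of all probes were called. Over the day in XY gonads 5 rose and 3 fell, where 7.54% of all probes were called. Those that rose were Hsd11b2 by 1.48, Tbx2 by 0.67, Tgfb2 by 0.64, Ccnd1 by 0.53 and Ccnd2 by 0.50, while Bmp4 changed by -1.09, Sfrp1 by -0.70 and Foxd1 by -0.65. Tgfb2, Bmp4 and Sfrp1 changed the same way in XX gonads, by 0.65, -1.43 and -0.69. The median of the list was 0.04 at E12.0. These genes answer to many signals, and the list holds no gene that responds to hedgehog alone. A gene with several probes is given by the probe with the smallest p.

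**Figure D5:**
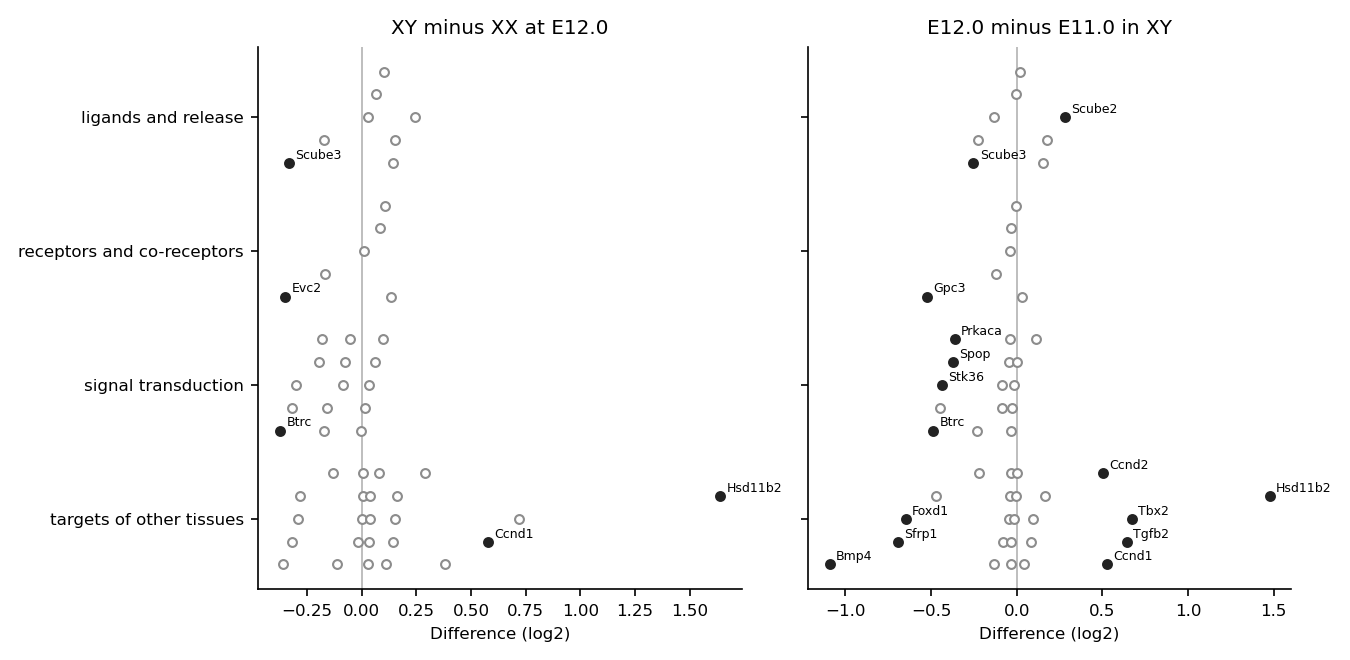
Difference in log2 units (x axis) for each measured gene of 4 hedgehog lists (rows), for XY minus XX at E12.0 (left) and E12.0 minus E11.0 in XY gonads (right), both averaged over the strains. Each point is a gene, with a small vertical offset for legibility, and filled and named points have adjusted p under 0.05; Hsd11b2 lies farthest to the right, at 1.64 and 1.48.

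The cells that would receive the signal were read from their markers at E12.0, where 4.88% of all probes were called. Of 9 measured fetal Leydig cell genes, 1 was higher in XY, Gramd1b (0.37, adjusted p = 0.0138), and the steroidogenic genes Cyp11a1 (-0.19), Hsd3b1 (-0.03), Star (0.07) and Cyp17a1 (0.01) were not called. The mean level of the list was 7.36 to 7.45 in XY and 7.36 to 7.39 in XX arrays. This is at or near the floor of 6.83 to 7.43, where a small rise of these genes may go unseen. Of 13 measured genes of interstitial progenitors, 1 was higher, Tcf21 (0.76, adjusted p = 0.00021), and Pdgfra stood at 0.36 and was not called (adjusted p = 0.0778). The median difference of this list was 0.04. Its mean level was 8.49 to 8.79 in XY and 8.27 to 8.71 in XX arrays, so the sexes overlapped.

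Schwann cell precursors also express Dhh. Of their 4 measured genes, 1 was higher in XY, Ngfr (0.90, adjusted p = 1.6e-09), while Foxd3, Fabp7 and S100b lay within 0.04 of 0. The mean of the list was 7.91 to 7.99 in XY and 7.62 to 7.83 in XX arrays. Ngfr is 1 of the 4 genes in this mean, and the median difference of the list was 0.001. No endothelial gene of 11 and no germ cell gene of 7 was called by sex at E12.0, and of 11 mesonephric genes Lhx1 was higher (0.62, adjusted p = 0.0045), against the same 4.88%. Over the day 3 of the 7 germ cell genes rose in XY gonads, with a median change of 0.59 where 7.54% of all probes were called, and 6 of the 7 rose in XX gonads, with a median change of 0.79 where 5.15% were called. The part of these cells in the results was not tested.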

How the data were processed

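Total RNA of single pairs of gonads was amplified, labelled and hybridised to Illumina MouseRef-8 BeadChips. The authors extracted the intensities with GenomeStudio, then quantile normalized and log2 transformed them with the R package beadarray (R 2.12.0 per the submitters' notes), and these deposited log2 values were used without further normalization. A second deposited table with 148 columns of non-normalized intensities and detection values was left out, because its columns could not be matched to samples. So no detection filter was applied and all 25697 probes were tested.

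Group means of the 24 groups were fitted over all 74 arrays with limma 3.58.1 (R 4.3.3), with Benjamini-Hochberg adjustment over all probes for each comparison and a threshold of 0.05. Intervals are 95%. The members and gene lists were chosen with earlier results of these data known. Genes named are the members and, for Dhh, Ptch1, Gli1 and Hhip, the 4 genes with the most similar group means among the brighter 50% of probes. Of the lists, up to 4 genes that passed at E12.0 or over the day in XY were to be named by smallest p; any others were chosen after their values were seen. The methods' full factorial was fitted as well. Exact permutation tests moved sex labels within strains. The script was tested on simulated data. Probes were named from the platform annotation, 23978 with a symbol and 1719 without. The number of arrays limits the precision.

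Alternatives were the brighter 50% of probes, a variance prior with a mean trend, array weights, the replicate number as a block, only the arrays compared, median centring and leaving out each array in turn. Leaving the B6 XX array that stood apart out of the shared spread was added after the values were seen.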

Additional observations from a re-analysis of the deposited data

Results flagged for a closer look

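Dhh was singled out because its sex effect differed between the strains. At E11.6 XY minus XX was 1.84 larger in 129S1 than in B6 on the log2 scale (adjusted p = 0.0041). Its change from E11.0 to E12.0 also differed between XY and XX gonads, by 3.81 averaged over the strains, by 4.44 in 129S1 and by 3.18 in B6 (adjusted p = 4.4e-20, 1.0e-15 and 1.0e-10). No sample of a group with 4 or 5 arrays lay far enough from the others to be singled out for any of the 9 probes. Groups of 3 were too small for that test.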

How the results depend on the processing

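All 1536 values under other settings were compared with those reported: 1433 kept their direction and their side of the threshold or stayed within 1.5 times, 22 lost a call, 17 gained one, 34 turned sign and 30 moved by more. Dhh kept its XY enrichment averaged over the strains, at E11.6, E11.8 and E12.0, under each alternative run.

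By an unadjusted p with a minimum fold change, the onset of Dhh in B6 moved from E11.8 to E11.6, that is, from 19.2 h to 14.4 h after E11.0. In the study this cut prepared the input of a Hidden Markov Model, which set the onsets. No such model was fitted here. With only the arrays compared, the strain difference of Dhh's sex effect at E11.6 was 1.84 but not called (adjusted p = 0.444), and 120 probes in place of 188 were called by sex at E11.6. Under the same setting Dhh and Hhip lost their strain difference in XY gonads at E12.0 (adjusted p = 0.207 and 0.164). With the B6 XX array that stood apart at E11.2 left out of the fit, a setting chosen after seeing the data, the rise of Ptch1 in XY was called (0.21, adjusted p = 0.01), as was that in 129S1 XY alone (0.31, adjusted p = 0.0089), and no other of 89 values crossed the threshold or turned sign. The rise of Ptch1 in XY also passed over the brighter 50% of probes (0.21, adjusted p = 0.0412), with only the arrays compared (0.21, adjusted p = 0.0183) and with the replicate number as a block (0.24, adjusted p = 0.016). With array weights, 1628 probes in place of 990 were called by sex at E11.8, and 3 differences near 0 turned positive: Gas1 at E11.6 (0.0095) and E12.0 (0.0147), and Gli3 at E11.8 (0.00032). The cause was not tested in any of these.

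The replicate numbers were not taken to pair XX and XY samples. Of 35 same-numbered pairs, 20 had a correlation of deviations over 0.1, with a median of 0.17 and a range of -0.54 to 0.74. These values do not settle whether same-numbered samples belong together. With the block, Dhh's strain difference of the sex effect at E12.0 was called as well (1.38, adjusted p = 0.0208).

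Leaving out 1 array at a time kept Dhh between 1.42 and 1.68, 3.12 and 3.33, and 3.70 and 4.06 for the sex difference at E11.6, E11.8 and E12.0. The comparison of 129S1 at E11.8 with B6 at E12.0, chosen after seeing the data, ranged from -0.12 to 0.61. The rise of Ptch1 in XY ranged from 0.19 to 0.23. Values that crossed 0 were the sex difference of Ptch1 at E11.8 (-0.044 to 0.020), of Gas1 at E11.6 (-0.040 to 0.014) and E12.0 (-0.053 to 0.024), of Gli1 at E11.6 (-0.053 to 0.023) and of Gli3 at E11.8 (-0.044 to 0.016). So did the change in XY of Gas1 (-0.053 to 0.016) and Gli3 (-0.011 to 0.065), and that in XX of Hhip (-0.049 to 0.033), Ptch1 (-0.0065 to 0.055) and the second Smo probe (-0.12 to 0.030).

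The floor limits what the Ptch1, Hhip, Gli1, Gli3 and Gas1 probes can show, and groups of 2 to 5 arrays limit the precision. Detection values were not used here. Probes of 1 gene can differ, as the 3 Smo probes did in passing the test.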
